A study of Mus musculus with 14 samples.

Results

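Spp1 encodes osteopontin, and its level was read in sorted natural killer (NK) cells and in tumour stromal cells of mice. It was followed by its symbol as 1 gene of 10210 listed for the 11 NK libraries and 1 gene of 12235 listed for the 3 stromal libraries. The gene was chosen by its counts in these same NK groups, which earlier results had shown to differ, and its stromal counts were part of that choice. Its levels in the NK groups and in the stromal libraries are therefore given as a description with no test.

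Osteopontin is a secreted, phosphorylated and acidic glycoprotein of the SIBLING family, well known from bone matrix. It binds integrins through an RGD sequence, binds further integrins through a site that thrombin exposes, and is also described as a ligand of CD44. Macrophages, activated T cells, NK cells, osteoclasts, many epithelia and carcinoma cells can make it, and in tumours it is best known as a product of macrophages, cancer cells and fibroblasts.

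The NK cells came from 3 groups of BALB/c mice: spleens of healthy mice (3 libraries), spleens of mice with a tumour (4 libraries), and the tumours (4 libraries). The labels give an age of 8 weeks, and tumours were grown in females from 100000 4T1-GFP cells placed in the mammary fat pad. 4T1 is a transplantable mammary carcinoma line of BALB/c origin, used to model triple-negative disease, and GFP is a fluorescent protein that marks the injected cells. NK cells were sorted as GFP-, EPCAM-, CD45+, CD3-, CD31-, CD14- and NKp46+. The fourth group, with 3 libraries, is called sCAF in the labels, a subset of cancer-associated fibroblasts, and was sorted from the tumours as EPCAM-, GFP-, CD45-, CD31- and PDPN-. Tumours were digested with collagenase A and DNase for 20 min at 37 °C, whereas spleens were crushed and kept on ice for red cell lysis, so tissue and handling cannot be told apart in a comparison of tumour with spleen. The labels call the replicates independent but do not tie a library to an animal, so the spread between libraries may be partly technical.

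In the GENCODE M21 annotation of mm10, Spp1 lies on the plus strand at chr5:104435118-104441050. It has 7 annotated transcripts, and 1 of them, Spp1-201, has 7 exons. The libraries were read from the 3′ end of mRNA, and the last exon, chr5:104440229-104441050, holds the end of the coding sequence and the 3′ UTR, which starts at 104440616. Exon usage and splice forms were therefore not read. One predicted gene, Gm42793, overlaps the 5′ end of Spp1 on the same strand.

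The 250 bases before the start of Spp1 in RefSeq, which lies slightly upstream of the GENCODE start given above, are shown because they carry the motifs of factors linked to Spp1 whose own mRNA levels are described further on. The sequence is the RefSeq promoter window of GRCm38.p6 at chr5:104434861-104435110, plus strand, printed 5′ to 3′. Capitals mark the letters TATAAA, 2 Ets motifs (AGGAAG, with CTTCCT on the other strand), a Runx motif (TGTGGT, read here as ACCACA on the minus strand) and a CCAAT box (read here as ATTGG on the minus strand).
Spp1 upstream window: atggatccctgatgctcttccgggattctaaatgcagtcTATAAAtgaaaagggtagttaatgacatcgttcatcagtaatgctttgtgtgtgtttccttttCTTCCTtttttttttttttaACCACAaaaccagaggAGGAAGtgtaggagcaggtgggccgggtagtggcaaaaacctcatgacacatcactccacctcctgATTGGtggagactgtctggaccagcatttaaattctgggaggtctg
Counted back from the RefSeq start, the Runx motif began 128 bases before it, the Ets motifs 148 and 112, the CCAAT box 46 and TATAAA 211. Both strands were searched. Among 32851 promoter windows of the same length, 14% held TGTGGT, 29.5% held AGGAAG, 33.8% held CCAAT and 12.4% held TATAAA, so each of these motifs is common. The window held no AP-1 motif (TGANTCA, found in 6.75% of windows), no T-box motif (AGGTGTG, in 5.1%) and no AGGTCA (in 14%). A match is a run of letters, not a binding site.

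Total counts ran from 559688 to 1966963 in the NK libraries and from 1318067 to 2230475 in the sCAF libraries, over listed genes only. A count of 0 allows up to 3 counts, which is 1.53 to 5.36 CPM (counts scaled to a library total of 1000000) in the NK libraries and 1.35 to 2.28 CPM in the sCAF libraries. All 10 NK marker genes were listed in the NK libraries, and none of them was listed in the sCAF table. Their summed level was 27800 to 32200 CPM in healthy spleens, 26200 to 29600 CPM in tumour-bearing spleens and 18200 to 21700 CPM in tumours. Every tumour NK library thus lay below every spleen library in this sum. Most of the sum was Gzma, with means of 17100, 17400 and 13200 CPM in the same order. By edgeR, 6 of the 10 genes were called lower in tumours than in tumour-bearing spleens, beside 13.2% of all genes. Against healthy spleens 4 were called lower, beside 14%, and none was called higher in either comparison. Eomes averaged 448 CPM in tumour-bearing spleens and 625 CPM in tumours. The sCAF libraries did not match their label cleanly. Their 8 carcinoma or epithelial markers summed to 3420 to 4440 CPM, whereas their 10 fibroblast markers summed to 498 to 1320 CPM. Most of the epithelial sum was Krt18, at 2300, 2990 and 2250 CPM, and Krt8, at 691 to 826 CPM. Krt7 stood at 155 to 357 CPM and Cldn4 at 107 to 268 CPM. Epcam, Cdh1, Krt19 and Cldn7 were at 43.5 CPM or below. Among the fibroblast markers, Col1a2 stood at 178 to 414 CPM, Col3a1 at 75.8 to 264 CPM and Pdgfrb at 40.2 to 217 CPM. Col1a1 stood at 46.2 to 81.8 CPM and Pdgfra at 40.2 to 84.8 CPM, whereas Lum, Fap and Acta2 were at 3.79 CPM or below. These are called the libraries labelled sCAF below.

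Spp1 was lowest in NK cells of healthy spleens, higher in NK cells of tumour-bearing spleens and highest in NK cells of tumours, and no library of one group overlapped another group. Levels in the NK libraries are CPM on TMM-scaled library sizes (a scaling that evens out differences in composition). Healthy spleen NK replicates 1 to 3 had 3, 7 and 3 Spp1 counts, which is 4.6, 3.72 and 2.46 CPM (3.59 ± 1.07, SD, n = 3). All 3 are near the limit that a count of 0 allows. Tumour-bearing spleen NK replicates 1 to 4 had 30, 39, 58 and 41 counts, or 22.7, 21.7, 29.7 and 29.5 CPM (25.9 ± 4.29, SD, n = 4). Tumour NK replicates 1 to 4 had 93, 24, 56 and 81 counts, or 75.8, 34.6, 33.5 and 76.6 CPM (55.1 ± 24.3, SD, n = 4). Such a clean separation in CPM was seen for 12.2% of all genes tested between the spleens (6.52% with the tumour-bearing group higher), 29.7% between tumours and tumour-bearing spleens (16.5% with tumours higher) and 34.8% between tumours and healthy spleens (18.5% with tumours higher). The tumour libraries fell into a high pair, replicates 1 and 4, and a low pair, replicates 2 and 3, that lay just above the tumour-bearing spleens.

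**Figure D1:**
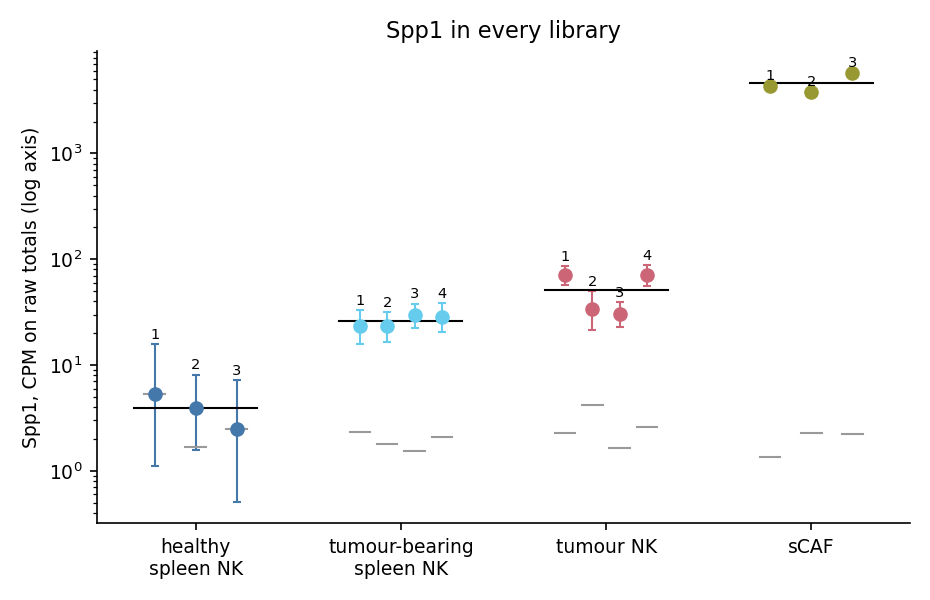
Spp1 level (CPM on raw totals, log axis) in each library of the 3 NK groups and of the libraries labelled sCAF; points are libraries numbered by replicate, error bars exact 95% intervals of counting error, black bars group means and grey ticks the limit of 3 counts. The group means are 3.93, 26.1 and 51.4 CPM in NK cells of healthy spleens, tumour-bearing spleens and tumours and 4620 CPM in the libraries labelled sCAF.

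The first step, from healthy to tumour-bearing spleens, left a gap of 17 CPM between the highest healthy and the lowest tumour-bearing library. The second, from tumour-bearing spleens to tumours, left a gap of only 3.8 CPM between neighbouring libraries, although the group means differed by 29.2 CPM. Counting error alone spans that second gap: the exact 95% Clopper-Pearson interval of tumour replicate 2 ran from 21.6 to 50.1 CPM on its raw total, and those of the tumour-bearing spleen libraries spanned 15.7 to 38.8 CPM. These intervals cover counting error only.

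In the edgeR fit over all 11 NK libraries, Spp1 was 2.87 log2 units higher (SE 0.44) in tumour-bearing than in healthy spleens, the 9th largest positive difference of 8471 genes fitted. It was 1.09 log2 units higher (SE 0.262) in tumours than in tumour-bearing spleens, the 635th largest. Tumour against healthy spleen gave 3.96 log2 units (SE 0.418), the 87th largest. The comparisons share groups, and the gene was chosen for its level, so these values describe the choice. Summed over libraries, the ratio of counts per total was 7.19 between tumour-bearing and healthy spleens (95% counting interval 4.09 to 13.8) and 1.92 between tumours and tumour-bearing spleens (1.57 to 2.35).

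In rank among the 10210 listed genes, Spp1 moved from places 8427 to 9090 in healthy spleens to 4631 to 5662 in tumour-bearing spleens and 2524 to 4543 in tumours. In tumour NK replicates 2 and 3, 55.1% and 55% of listed genes lay below Spp1, and in replicates 1 and 4, 74.6% and 75.1% did. In bulk samples, a larger share of Spp1-expressing cells and more Spp1 RNA per cell cannot be told apart.

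The 7 spleen libraries split into sets that cross the groups: healthy replicate 1 with tumour-bearing replicates 1 and 2, and the other 4. This split took 58.8% of their within-group variance. In the first set Spp1 was at 4.6 CPM in the healthy library and at a mean of 22.2 CPM in the tumour-bearing libraries. In the second the means were 3.09 and 29.6 CPM. As the 2 spleen groups did not overlap in Spp1, this order within each set was fixed beforehand. The healthy library of the first set had only 3 Spp1 counts.

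Markers of other cells that can make osteopontin were read beside Spp1. Of 13 macrophage and monocyte markers 8 were listed for NK cells, and their summed raw-total level was 10.7 to 25.3 CPM in healthy and 17.9 to 28.5 CPM in tumour-bearing spleens, ranges that overlap. Csf1r, the macrophage growth factor receptor, was at 0 in all 7 spleen libraries. In tumour replicates 1 to 4 the macrophage sum was 42.6, 54.7, 234 and 40.9 CPM. Replicate 3, with the largest macrophage sum, had the lowest Spp1 of the 4 tumour libraries, and replicates 1 and 4, with the smallest sums, had the highest. The other marker sums, given next, did not all share this order, and none of these orders was tested.

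Neutrophil markers (4 of 10 listed) summed to 0.563 to 8.93 CPM in healthy spleens, 0.698 to 14.3 CPM in tumour-bearing spleens and 55.5 to 153 CPM in tumours. Of 8 epithelial markers only Epcam and Cdh1 were listed, with sums of 0 to 3.57, 0 to 2.97 and 25 to 51 CPM in the same order, and no keratin was listed. The 3 listed dendritic markers summed to 35.7 to 57.8, 52.9 to 100 and 173 to 230 CPM, and the 3 listed fibroblast markers to 197 to 253, 389 to 516 and 698 to 858 CPM. The epithelial sum in tumours was mostly Cdh1 (41.8 ± 10.3 CPM, beside 4.04 ± 2.63 CPM for Epcam). The fibroblast sum was mostly Thy1, which lymphocytes also express, at 202, 434 and 792 CPM in the mean of the 3 groups, whereas the collagen genes were low: Col1a2 averaged 4.38, 4.36 and 9.54 CPM and Col3a1 5.09, 1.67 and 3.08 CPM. In tumour replicates 1 to 4 the neutrophil sum was 55.5, 153, 66.3 and 56.6 CPM, again smallest in replicates 1 and 4. The epithelial sum was 51, 47.7, 25 and 47.9 CPM and the fibroblast sum 726, 698, 721 and 858 CPM. Both were largest in replicates 1 and 4, where Spp1 was highest, the epithelial sum only narrowly. The dendritic sum, at 188, 173, 230 and 215 CPM, had neither order. All 5 sums were higher in tumours than in spleens, as Spp1 was, and their part in its level there was not tested.

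Markers of lymphocytes and vessels were read too. The 3 listed T cell markers summed to 50 to 79.3 CPM in healthy spleens, 106 to 144 CPM in tumour-bearing spleens and 59.2 to 98.1 CPM in tumours. The only listed endothelial marker was Pecam1, which encodes CD31, a marker the sort excluded, and it stood at 48.2 to 81, 79.2 to 93 and 131 to 185 CPM. The only listed B cell marker, Cd79b, was at 10.7 CPM or below throughout, and no erythroid marker was listed. Of 6 osteoclast markers only Acp5 was listed, and it is described with the enzymes. Between the spleen groups the T cell and fibroblast sums did not overlap, and both were higher in tumour-bearing spleens, as Spp1 was. Their part in its level in spleens was not tested.

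**Figure D2:**
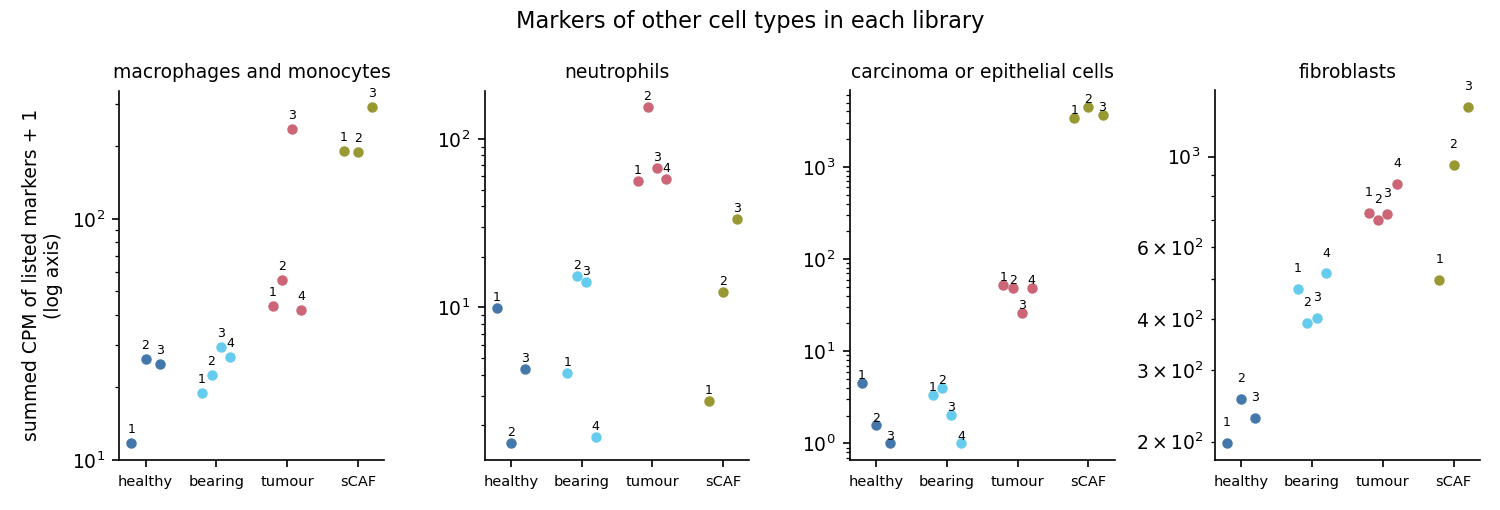
Summed level of listed marker genes (CPM on raw totals + 1, log axis) in each library, with 1 panel per marker list and 1 point per library, numbered by replicate. Tumour NK replicate 3 has the largest macrophage sum of the NK libraries, 234 CPM, and the epithelial sums of the libraries labelled sCAF, 3420 to 4440 CPM, lie above all NK libraries.

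In the libraries labelled sCAF, Spp1 was among the most abundant genes. The 3 libraries held 9713, 4982 and 7614 Spp1 counts, or 4355, 3780 and 5717 CPM on raw totals (4620 ± 995, SD, n = 3), which is 0.435%, 0.378% and 0.572% of all counts. It ranked 14th, 27th and 7th of 12235 genes. The pooled Spp1 share was 90.2 times that in tumour NK libraries (95% counting interval 79.7 to 103), and 92.1 times on totals over the 9215 genes that both tables list. The tables were deposited separately and differ in their cells and sort, so no test was made. The level in these libraries was also part of the choice of the gene, so its ranks and ratio describe that choice. The macrophage sum in these libraries was 189 to 289 CPM. Their dendritic sum was 3140, 2120 and 836 CPM in replicates 1 to 3, mostly Cd74 (524 to 1770 CPM) and H2-Ab1 (308 to 1370 CPM). The epithelial sum exceeded the fibroblast sum in all 3 libraries, and which cells carried the Spp1 RNA was not tested.

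Spp1 was the only member of the 5-gene SIBLING family listed for NK cells. In the libraries labelled sCAF, Ibsp, the bone sialoprotein gene, stood at 29.1, 53.9 and 48.8 CPM, and Dmp1, dentin matrix protein, at 25.6, 12.9 and 6.76 CPM. Both were far below Spp1. Dspp and Mepe were listed in neither table.

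Of 10 receptor genes 6 were listed for NK cells and all 6 were tested with edgeR's quasi-likelihood test, with p adjusted by Benjamini-Hochberg over all genes. Against tumour-bearing spleens, tumour NK cells had 4 receptor genes higher, 1 lower and 1 not called. Over all genes tested 15.8% were called higher and 13.2% lower in that comparison, 29% in all. The receptors' median difference was 0.66 log2 units, beside 0.002 over all genes. Against healthy spleens the counts were also 4 higher and 1 lower with a median of 0.66, where 16.5% of all genes were called higher and 14% lower, 30.5% in all, with a median of 0.017. The 4 higher became 2 on raw totals and without healthy replicate 2 (Cd44 adjusted p 0.139, Itgb1 0.07) or 3 (0.0736 and 0.0913, all in edgeR). Between the spleens 1 receptor gene was higher and none lower by edgeR (0 lower at an unadjusted p under 0.05, and 0 by DESeq2) with a median of 0.2, where 1.23% of all genes were called higher and 0.354% lower, 1.58% in all, with a median of −0.004.

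Itgb3, the integrin β3 subunit that pairs with αv to form the classical osteopontin receptor, had the widest steps of the 6. Its level was 21.5, 14.9 and 19.7 CPM in healthy spleens, 43.2, 38.9, 37.9 and 56.1 CPM in tumour-bearing spleens, and 313, 343, 290 and 381 CPM in tumours. The groups did not overlap, and all tumour libraries lay far above every spleen library. Itgb3 rose by 2.92 log2 units (SE 0.156) from tumour-bearing spleen to tumour, with an adjusted p of 6.18e-11 in edgeR's quasi-likelihood test. Between the spleens it was 1.28 log2 units higher (SE 0.212, adjusted p 0.00233 in edgeR), a call lost without healthy replicate 2 (1.1, adjusted p 0.0705).

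Itgav, the αv partner, had 23, 15.4 and 15.6 CPM in healthy spleens, 31.1, 31.1, 24.6 and 21.6 CPM in tumour-bearing spleens and 45.6, 47.6, 35.9 and 46.3 CPM in tumours. Every tumour library was above every spleen library, while the spleen groups overlapped. The tumour NK cells exceeded tumour-bearing spleens by 0.68 log2 units (SE 0.194, adjusted p 0.0128 in edgeR), a call lost on raw library totals. The difference between spleens was 0.65 log2 units and was not called (adjusted p 0.232 in edgeR).

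Cd44, the hyaluronan receptor, had 47.5, 30.3 and 36.1 CPM in healthy spleens, 53.1, 48.8, 31.2 and 21.6 CPM in tumour-bearing spleens and 57.1, 70.7, 75.3 and 57.7 CPM in tumours. Its tumour libraries lay just above the highest spleen library. The difference from tumour-bearing spleens was 0.76 log2 units (SE 0.23, adjusted p 0.0192 in edgeR). The call was lost without tumour-bearing replicate 3 (adjusted p 0.0716) or 4 (0.0587), without tumour replicate 3 (0.0749) and on raw totals.

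Itgb1, the β1 subunit shared by many matrix receptors, rose from 275 ± 37.2 CPM in tumour-bearing spleens to 427 ± 68.3 CPM in tumours (SD, n = 4 each), by 0.64 log2 units (SE 0.142, adjusted p 0.00202 in edgeR). Itga4, which pairs with β1 to bind the thrombin-exposed site of osteopontin as well as VCAM-1 and fibronectin, moved the other way. It had 816, 816, 653 and 560 CPM in tumour-bearing spleens and 275, 327, 316 and 244 CPM in tumours, and fell by 1.29 log2 units (SE 0.153, adjusted p 2.54e-06 in edgeR). Itga5, of the fibronectin receptor, was 0.62 log2 units higher in tumours without passing the test (adjusted p 0.0563 in edgeR). Without tumour-bearing replicate 2 it passed, at 0.77 log2 units.

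**Figure D3:**
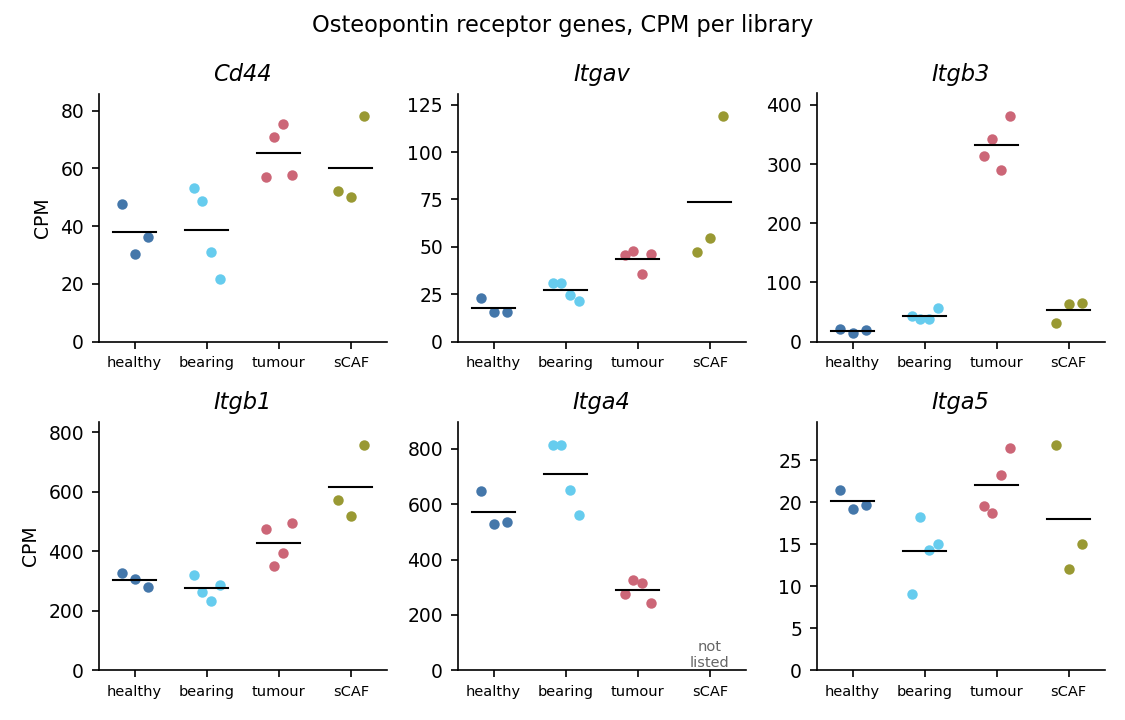
Level of the 6 receptor genes listed for NK cells (CPM, linear axis from 0 in each panel) in healthy spleen, tumour-bearing spleen (bearing) and tumour NK and in the libraries labelled sCAF, with points for libraries and bars for means. Itgb3 lies at 290 to 381 CPM in tumour NK and at 56.1 CPM or below in spleen NK, whereas Itga4 is lower in tumours than in spleens.

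The libraries labelled sCAF listed 8 of the 10 receptor genes. Itgb1 stood at 572, 517 and 758 CPM, Itgb5, another αv partner, at 284, 241 and 644 CPM, and Itgav at 47.1, 54.6 and 119 CPM. Itgb3 was at 30.9, 63 and 65.3 CPM there, which is 0.163 times the pooled share in tumour NK libraries. Itga4 was not listed. Thus these libraries, with the most Spp1, had less Itgb3 than tumour NK cells, and had Itgb5 that the NK table does not list.

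Of 9 enzymes that cut, phosphorylate, dephosphorylate or crosslink osteopontin, 4 were listed for NK cells and 2 had counts enough for a test. Acp5, tartrate-resistant acid phosphatase, which can dephosphorylate osteopontin, was at 253, 244 and 226 CPM in healthy spleens, 143, 158, 157 and 161 CPM in tumour-bearing spleens and 50.5, 62, 61 and 53.9 CPM in tumours. The order of the groups was the reverse of that for Spp1, with no overlap. Acp5 fell by 1.45 log2 units from tumour-bearing spleen to tumour (SE 0.129, adjusted p 5.85e-08 in edgeR). Between the spleens it fell by 0.63 log2 units (SE 0.126, adjusted p 0.00985 in edgeR), a call lost without healthy replicate 2 (adjusted p 0.0867).

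Tgm2, transglutaminase 2, which crosslinks osteopontin, was called higher in tumours than in tumour-bearing spleens (adjusted p 8.76e-05 in edgeR). It stood at 14.7, 8.65, 20.9 and 12.3 CPM in tumours and at 2.27 CPM or below in tumour-bearing spleens, at or under the limit that a count of 0 allows, so no fold is given. Mmp9 and the kinase gene Fam20c were listed for NK cells at 7.68 CPM or below and were not tested. In the libraries labelled sCAF, Tgm2 reached 528 ± 130 CPM, Mmp9 303 ± 164 CPM, Mmp3 121 ± 62.2 CPM and Acp5 82.7 ± 14.6 CPM (SD, n = 3). Mmp3 and Mmp9 are metalloproteinases that can cleave osteopontin. F2, which encodes thrombin, was listed in neither table.

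Among 14 transcription factors linked to Spp1 in the literature, 13 were listed for NK cells and 12 were tested. Against tumour-bearing spleens 8 were higher in tumours and 2 lower, with a median of 1.06 log2 units, beside 15.8% and 13.2% of all genes. Against healthy spleens 7 were higher and none lower by edgeR (median 1.1), beside 16.5% and 14% of all genes; Sp1 was 0.53 and Runx1 0.46 log2 units lower there without passing, and DESeq2 also called none lower (3 were lower at an unadjusted p under 0.05). Between the spleens 1 was higher and none lower by edgeR, with a median of 0.16 (1 lower at an unadjusted p under 0.05, and 0 by DESeq2), beside 1.23% of all genes called higher.

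The factors with the largest rises belong to AP-1, a family of dimers that act early after stimulation. Fosl2 had 46.2, 46.1, 14.3 and 8.63 CPM in tumour-bearing spleens and 561, 580, 526 and 456 CPM in tumours, a rise of 4.20 log2 units (SE 0.576, adjusted p 0.000643 in edgeR). Its spleen libraries split by the sets named above, yet all lay far below the tumours. Junb rose by 2.51 log2 units (SE 0.216, adjusted p 7.47e-08 in edgeR), from 519 ± 176 to 2970 ± 521 CPM (SD, n = 4 each).

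Jun rose at both steps. It had 13.8, 12.8 and 7.38 CPM in healthy spleens, 28, 43.8, 37.9 and 28.8 CPM in tumour-bearing spleens and 164, 123, 102 and 164 CPM in tumours, with tumour replicates 1 and 4 again above 2 and 3. That order was not particular to Jun. Itgb1 (474, 349, 392 and 494 CPM) and Myc (97.8, 54.8, 58.6 and 88.9 CPM) shared it in tumour replicates 1 to 4, whereas Cd44 had the reverse. The rises of Jun were 1.64 log2 units between the spleens (SE 0.284, adjusted p 0.00338) and 1.97 from tumour-bearing spleen to tumour (SE 0.197, adjusted p 2.5e-07, both in edgeR). Fos was 1.38 log2 units higher in tumours (SE 0.382, adjusted p 0.023 in edgeR), a call lost without tumour-bearing replicate 1, 2 or 4 or tumour replicate 1, with adjusted p from 0.051 to 0.0578.

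The Runx factors, whose motif stands in the Spp1 window, did not move together. Runx2, the master factor of bone formation, had 53.8, 60.5, 65.5 and 42.4 CPM in tumour-bearing spleens and 158, 112, 129 and 147 CPM in tumours, and rose by 1.29 log2 units (SE 0.158, adjusted p 3.59e-06 in edgeR). Runx3, which acts in NK and cytotoxic T cells, rose by 0.65 log2 units (SE 0.129, adjusted p 0.000722 in edgeR), from 329 ± 39.8 to 517 ± 30.4 CPM. Runx1 fell by 0.55 log2 units (SE 0.164, adjusted p 0.0165 in edgeR), a call lost without tumour-bearing replicate 4 (adjusted p 0.0543) or tumour replicate 4 (0.053).

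Tbx21, which encodes T-bet and is described as a driver of Spp1 in T cells, fell by 0.50 log2 units from tumour-bearing spleen to tumour (SE 0.143, adjusted p 0.0135 in edgeR), from 544 ± 19.3 to 386 ± 77.9 CPM. Within the tumours Tbx21 had 453, 365, 285 and 442 CPM in replicates 1 to 4. It was higher in replicates 1 and 4, as Spp1, Itgb1 and Myc were. Against healthy spleens its difference in tumours was −0.34 log2 units and was not called by edgeR (adjusted p 0.103). Hif1a, the hypoxia factor, rose by 1.30 log2 units (SE 0.272, adjusted p 0.00136 in edgeR), and Myc by 0.83 (SE 0.206, adjusted p 0.00471 in edgeR). Ets1 differed by −0.07 log2 units and was not called (adjusted p 0.7 in edgeR). Vdr, the vitamin D receptor, was at 4.89 CPM or below in every NK library and was not tested. In the libraries labelled sCAF, Fos stood at 2450 ± 390, Jun at 1880 ± 285 and Junb at 2780 ± 875 CPM, and neither Runx3 nor Tbx21 was listed.

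**Figure D4:**
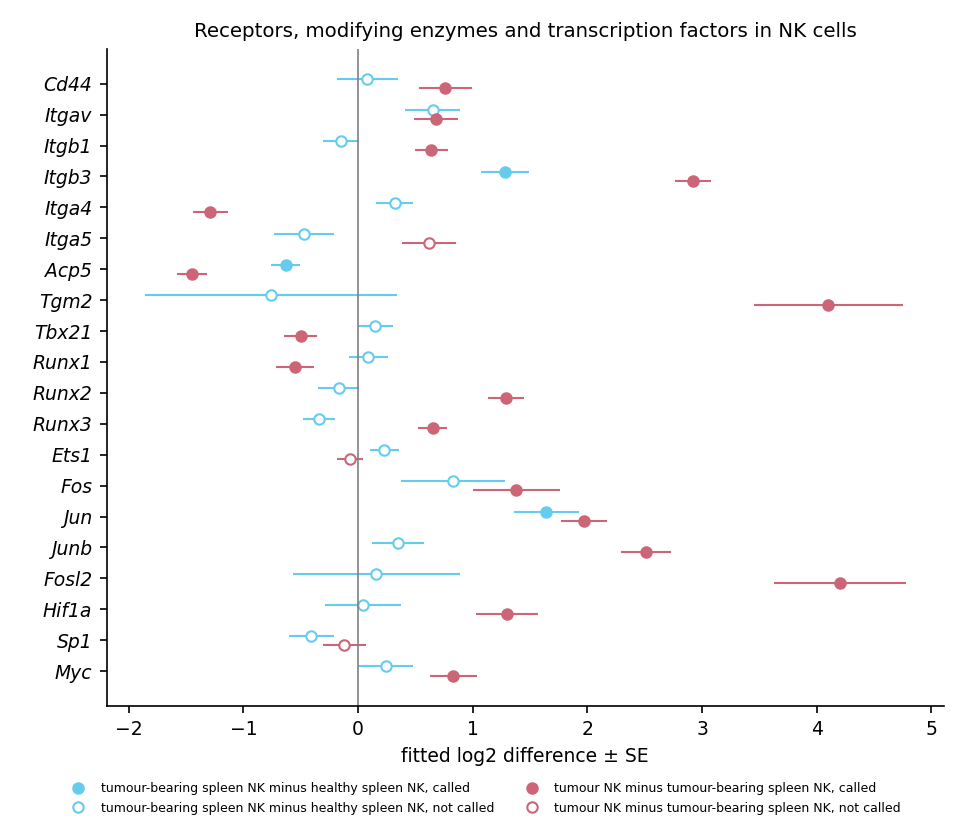
Fitted log2 difference with its SE for the receptor, enzyme and transcription factor genes tested in NK cells, with blue points for tumour-bearing minus healthy spleen and red points for tumour minus tumour-bearing spleen; filled points were called at an adjusted p under 0.05. Itgb3, Acp5 and Jun are called at both steps, and Acp5 is lower at each.

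Of 16 genes of integrin and CD44 signalling 15 were listed for NK cells and 14 tested. From tumour-bearing spleen to tumour 4 were higher and 2 lower with a median of 0 log2 units, beside 29% of all genes called in either direction. Against healthy spleen 4 were higher and 1 lower, also with a median of 0, beside 30.5% of all genes. These counts are not far from those shares. Pxn, which encodes the adhesion adaptor paxillin, rose by 0.61 log2 units (SE 0.139, adjusted p 0.00258 in edgeR) and Rela, an NF-κB subunit, by 0.46 (SE 0.115, adjusted p 0.00498 in edgeR). Ptk2b (0.39), Nfkb1 (0.43), Pik3cd (−0.50) and Tln1 (−0.42) were called by edgeR with adjusted p of 0.0225, 0.018, 0.0254 and 0.0449. These 4 calls each depended on single libraries. Ptk2b lost its call without tumour-bearing replicate 1 or 4 or tumour replicate 4 (adjusted p 0.0545 to 0.09), and Nfkb1 without tumour-bearing replicate 1 or 2 or tumour replicate 1 (0.0518 to 0.0726). Pik3cd lost it without tumour-bearing replicate 3 or 4 or tumour replicate 2 or 3 (0.0611 to 0.0865), and Tln1 without healthy replicate 2, tumour-bearing replicate 2, 3 or 4 or tumour replicate 1, 2 or 4 (0.0507 to 0.135). Between the spleens none of the 14 was called by edgeR (0 at an unadjusted p under 0.05, and 0 by DESeq2), and the median was −0.01.

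Osteopontin is a secreted cytokine, so other secreted products of NK cells were set beside it. Of 12 genes 11 were listed and tested. Between the spleens 5 were higher and none lower by edgeR (0 lower at an unadjusted p under 0.05, and 0 by DESeq2), with a median of 0.85 log2 units, beside 1.23% of all genes called higher. From tumour-bearing spleen to tumour 6 were higher and 2 lower with a median of 0.91, beside 15.8% and 13.2% of all genes. Against healthy spleen 8 were higher and 1 lower with a median of 2.15, beside 16.5% and 14%.

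The genes higher between the spleens were Ccl4 by 2.06 log2 units (SE 0.196, adjusted p 8.89e-06), Xcl1 by 1.54 (SE 0.223, adjusted p 0.000719), Gzmb by 1.34 (SE 0.167, adjusted p 0.000134), Ccl3 by 1.24 (SE 0.16, adjusted p 0.000205) and Ifng by 1.19 (SE 0.196, adjusted p 0.00233), all in edgeR. Ccl3, Ccl4 and Xcl1 are chemokines, Gzmb encodes the cytotoxic protease granzyme B and Ifng encodes interferon gamma.

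At the second step these genes parted. Xcl1 rose by a further 1.75 log2 units (SE 0.199, adjusted p 1.82e-06) and Gzmb by 0.91 (SE 0.148, adjusted p 0.000109 in edgeR), whereas Ccl3 fell by 1.29 (SE 0.146, adjusted p 1.36e-06 in edgeR). Ifng and Ccl4 differed by −0.11 and −0.15 log2 units and were not called (adjusted p 0.682 and 0.528 in edgeR). Ccl3 had 501, 598 and 590 CPM in healthy spleens, 1220, 1290, 1650 and 1180 CPM in tumour-bearing spleens and 522, 531, 630 and 498 CPM in tumours, so its tumour and healthy libraries overlapped.

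Further products were higher in the tumour. Lta, lymphotoxin alpha, rose by 2.43 log2 units (SE 0.288, adjusted p 2.48e-06), Csf2, which encodes GM-CSF, by 2.15 (SE 0.264, adjusted p 3.95e-06), Tgfb1 by 1.89 (SE 0.176, adjusted p 1.13e-07) and Tnf by 1.56 (SE 0.242, adjusted p 6.25e-05), all against tumour-bearing spleens in edgeR. Ccl5 fell by 1.08 log2 units (SE 0.182, adjusted p 0.000141 in edgeR) from a far higher level, 26100 ± 3620 CPM against 12300 ± 1950 CPM in tumours (SD, n = 4 each).

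Among 12 matricellular and RGD-bearing matrix genes, proteins that signal from the matrix as osteopontin does, 4 were listed for NK cells and only Mfge8 was tested. It was lower in tumours than in healthy spleens by edgeR (−0.80 log2 units, SE 0.208, adjusted p 0.00667), and neither other comparison called it. Fn1, Sparc and Tgfbi stood at 8.97 CPM or below in every NK library. All 12 were listed for the libraries labelled sCAF. Fn1, fibronectin, had 2370, 3280 and 3490 CPM there, Sparc 703, 952 and 1380 CPM, Ccn1 738, 677 and 1270 CPM and Mfge8 497, 506 and 554 CPM. Spp1 exceeded each of these in the same library, although counts of 3′ ends compare genes only roughly.

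The pooled share in the libraries labelled sCAF over that in tumour NK was 666 for Fn1 (95% counting interval 440 to 1060), 228 for Sparc (149 to 369) and 14.8 for Mfge8, beside 90.2 for Spp1. The ratios of Fn1 and Sparc rest on only 22 and 21 counts in all tumour NK libraries, near the limit that a count of 0 allows. Their sizes are therefore rough. The intervals cover counting error only and leave out the spread between libraries, which for Sparc in tumour NK ran from 0.598 to 8.97 CPM. They therefore do not rank these ratios against that for Spp1. Of 8 genes of calcification and bone matrix, 2 were listed for NK cells. Col1a2 was 1.16 log2 units higher in tumours than in tumour-bearing spleens (SE 0.427, adjusted p 0.0467 in edgeR), a call lost in 13 of 18 alternative fits, among them those without healthy replicate 2 or 3, tumour-bearing replicate 1, 3 or 4 or tumour replicate 1, 3 or 4 (adjusted p 0.0534 to 0.138). Mgp, matrix Gla protein, an inhibitor of calcification, had 985, 926 and 2140 CPM in the libraries labelled sCAF.

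The 10 NK genes whose profile was most like that of Spp1 were found by the root mean square (RMS) difference of centred log2(CPM + 1) values over the 11 NK libraries. Over 8262 genes compared the median RMS was 1.5 log2 units and the highest 3.37. Tigit, an inhibitory receptor of NK and T cells, was closest at 0.352. It had 4.28 ± 1.83 CPM in healthy spleens (n = 3), 22.9 ± 3.91 CPM in tumour-bearing spleens and 55.4 ± 9.69 CPM in tumours (SD, n = 4 each), close to the levels of Spp1 in all 3 groups.

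Bcl2a1b, an anti-apoptotic gene, followed at 0.481, and Tnfrsf9, the costimulatory receptor 4-1BB, at 0.522. Bcl2a1b belongs to a set of near-identical gene copies, so its counts are uncertain. These 3 genes were among the closest 10 in all 17 alternative settings. The early response genes Egr1 (0.56), Plk3 (0.563) and Jun (0.565) came next, then Xcl1 (0.596), Gzmb (0.63), the NK receptor gene Klrb1b (0.644) and the transporter gene Abcb9 (0.645). The last, Abcb9, was kept in 10 of the 17 settings, and ranking by Pearson's r kept 5 of the 10. Tigit was not in the sCAF table, whereas Egr1 stood at 1110 ± 291 CPM, Plk3 at 247 ± 45.5 and Tnfrsf9 at 5.65 ± 2.93 CPM in it (SD, n = 3).

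**Figure D5:**
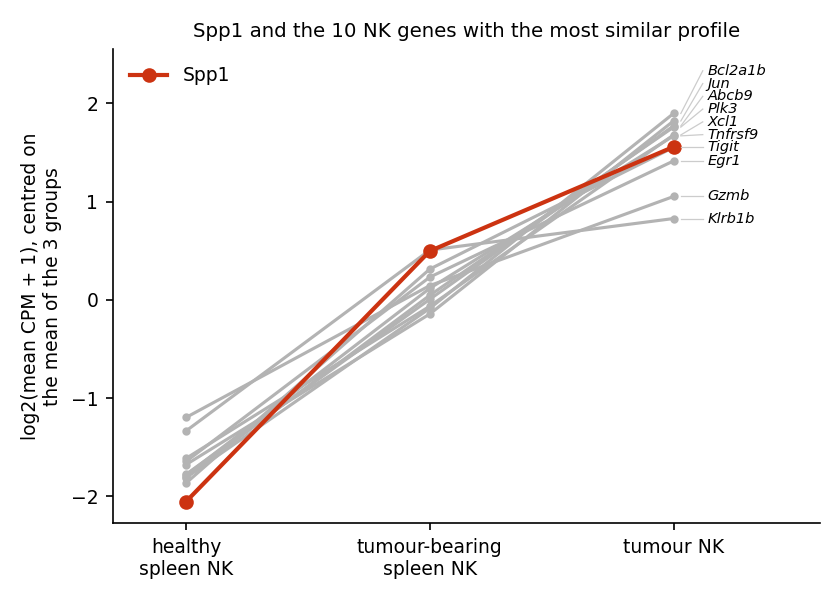
Mean level of Spp1 (red) and of the 10 NK genes most like it (grey) in the 3 NK groups, as log2(mean CPM + 1) centred on the mean of the groups. The lines were chosen for their likeness; Gzmb and Klrb1b end lowest in tumours, and Spp1 starts lowest in healthy spleens.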

How the data were processed

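Raw counts per gene symbol were deposited in 1 table for 11 NK libraries and 1 for 3 sCAF libraries; the submitters' processing notes name bcl2fastq, STAR 2.4.2a, HTSeq and mm10, and do not say whether molecular identifiers were used. In each header a run of spaces replaced a tab, and columns were read in the order of the names. The deposited NK counts hold no gene with fewer than 6 counts in its highest library, so low genes were removed before deposit. The sCAF counts hold 592 genes at 0 in all 3 libraries, so no such floor was set on these libraries. Why a gene is not listed for sCAF is not known, and its level there cannot be given.

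Under R 4.3.3, edgeR 4.0.16 kept 8471 genes with filterByExpr, scaled by TMM (factors 0.9096 to 1.166) and fitted 1 robust quasi-likelihood model with group as its only term. A call means an adjusted p (Benjamini-Hochberg, over all genes of a comparison) under 0.05. The SE of a log2 difference was calculated back, as its absolute value over the square root of the quasi-likelihood F, so it is approximate. Alternatives were other scalings, no filter, DESeq2 1.42.0, fits of 2 groups, a replicate block, a block by spleen set, and leaving out each library; counts per list under them, and likeness under other scalings or without a library, were added after seeing the data. Levels of sCAF libraries are CPM on raw totals. Libraries of a group differed beyond counting noise (chi-square per degree of freedom 1.95 to 11.3).

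Spp1, the gene lists and the markers were chosen with earlier results of these data known. Genes named are Spp1, list members and the 10 genes with the smallest RMS difference from its profile (Gm and Rik names left out).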

Additional observations from a re-analysis of the deposited data

Results flagged for a closer look

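Gap-to-range ratios were computed in the groups of 4 libraries for the genes described above, and 5 of 90 gene and group pairs had a library that stood apart by Dixon's 95% limit; chance gives about 1 in 20. In tumour-bearing spleens, Abcb9 was at 43.9 CPM in replicate 4, beside 22.7 to 24.1 CPM in the others, and Gzmb was at 1030 CPM in replicate 1, beside 1160 to 1170 CPM. In tumours, Col1a2 was at 2.88 CPM in replicate 2, beside 10.8 to 12.3 CPM. Itgav was at 35.9 CPM in tumour replicate 3, the library with the largest macrophage marker sum, beside 45.6 to 47.6 CPM. Lta was at 48.2 CPM in tumour replicate 4, beside 29.3 to 30.3 CPM. Spp1 itself had no such library in either group. Its values fell into a low and a high pair in each, however, and a ratio that reads only the end gaps cannot flag such a split.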

How the results depend on the processing

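The Spp1 differences stayed positive and moved by less than the spread between libraries under every alternative run: 0.89 to 1.28 log2 units from tumour-bearing spleen to tumour, 3.69 to 4.15 from healthy spleen to tumour and 2.68 to 2.98 between the spleens. Of 99 gene and comparison pairs checked, 77 kept their side of the threshold throughout and 22 did not; no direction reversed. The 3 to 7 counts per healthy library limit the precision of the first step.

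Scaling moved the split of calls. In tumour against tumour-bearing spleen 54.5% of calls were higher, beside 41.6% with upper-quartile scaling and 37.8% on raw totals, and against healthy spleen 54.2%, beside 42.4% and 32.9%. Between the spleens it was 77.6%, beside 65.9% on raw totals and 64.1% with a block by spleen set. Raw totals moved the median of all genes to −0.12 and −0.18 log2 units in the tumour comparisons, and gave 1694, 2000 and 47 genes lower in the 3 comparisons, where the values reported rest on 1115, 1182 and 30. They left 2 receptor genes higher in each tumour comparison. The block by spleen set gave 443 genes higher and 248 lower between the spleens, beside 104 and 30.

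Among the lists, signalling genes higher against tumour-bearing spleen fell to 2 with upper-quartile scaling and raw totals. Against healthy spleen, transcription factors lower numbered 1 with RLE scaling and without a filter, 2 in the fit of 2 groups and 3 with upper-quartile scaling and raw totals. Signalling genes lower there numbered 3 with upper-quartile scaling and 4 on raw totals, and secreted products lower 2 with either and with DESeq2.

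Leaving out 1 library at a time gave 783 to 1399 genes lower in tumour against healthy spleen, and 35 to 110 higher and 7 to 32 lower between the spleens, with 35 higher without healthy replicate 2 and 59 without healthy replicate 3. In tumour against tumour-bearing spleen it gave 1 to 2 transcription factors lower and 2 to 4 signalling genes higher and 0 to 2 lower. Against healthy spleen it gave 2 to 4 receptors higher, 0 to 2 transcription factors lower, 0 to 2 signalling genes lower and 1 to 2 secreted products lower. Between the spleens it gave 0 to 1 receptors higher and 0 to 1 enzymes lower.

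Replicate numbers did not pair the libraries: deviations of the 10 same-numbered pairs correlated at −0.346 to 0.494, with 4 over 0.1, and 0 of 11 libraries correlated best with their own number in both other groups. With the replicate block, 18 genes were lower between the spleens and 2 signalling genes lower against healthy spleen; Spp1 was 2.69 log2 units higher between the spleens.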
